A study of Mus musculus with 18 samples.

Results

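Very long genes, those that span about 250 kb of genome or more from the first to the last exon, were followed in livers of mice given monocrotaline. The 41 members are a fixed list of symbols, matched to the array through the systematic name of each probe. Of the 41, 40 had a probe on the array (none was found for Auts2) and 38 were bright enough to be compared, out of 24805 genes in all. Of these 38, 36 were well above background on all 9 mRNA arrays, and 2 passed through MCT arrays and not through all control arrays. The list was drawn up with results of these arrays in view, so the change of its members in these samples is given as a description and not as a test. The label of the list holds for length: in the RefSeq annotation of GRCm38.p6 the members span 277.9 to 2270.5 kb, with a median of 558.6 kb and 7 members over 1000 kb, on 19 chromosomes. The arrays measure the amount of RNA present in the liver and not the movement of RNA polymerase, so a block of transcription, which the label also names as possible, was not measured.

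Male C57BL/6 mice of 6 weeks went without food for 12 h and then received 1 oral dose of monocrotaline of 330 mg/kg (MCT 330) or 270 mg/kg (MCT 270), or saline (control), with 8 mice in each group; the livers were collected after 48 h. Monocrotaline is a pyrrolizidine alkaloid of plants, which cytochrome P450 enzymes of the hepatocyte turn into a reactive pyrrole able to alkylate and cross-link DNA and protein. Messenger RNA was measured on 9 single-colour Agilent arrays and microRNA on 9 further arrays, 3 per group on each platform. Whole liver was used, so for every gene below fewer cells of a type and less RNA per cell cannot be told apart.

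RNA polymerase II has to copy the whole of a gene, introns included, before a messenger RNA is complete. A very long gene therefore occupies a polymerase for much longer than a short one, and it offers more template in which a lesion, a cross-link or a trapped topoisomerase can lie. Positive elongation factor b and the Spt and PAF complexes keep the polymerase moving, topoisomerases relieve the twist ahead of it, and the Cockayne syndrome proteins begin the repair of lesions at which it stalls. Several of the members, Fhit and Wwox among them, lie at common fragile sites, stretches of chromosome that break readily when replication is slowed.

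The 9 mRNA arrays held 5 samples that could be told apart. The sample titles number the arrays as mice 1 to 9. Even so, by a robust SD that sets stray spots aside, the 3 MCT 330 arrays, MCT 270 replicates 2 and 3, and control replicates 2 and 3 each formed a set with internal differences no greater than those between repeated spots of a probe on a single array, within the error of that estimate, and each set was averaged. By the plain SD, MCT 330 replicate 1 exceeded that limit, at ratios of up to 1.22 against replicate 2 and 1.28 against replicate 3. The headers place replicates 2 and 3 of each group at the same array position in different scans; whether they are 1 hybridization read again is not stated. MCT 330 is therefore 1 sample, and its standard errors borrow the spread between the 2 MCT 270 samples and between the 2 control samples. The MCT 330 arrays were read in scans of their own, so the 330 mg/kg dose and the scan cannot be told apart, whereas MCT 270 and control arrays share 2 scans. Between 62.9% and 80.2% of probes lay well above background per array. Signals below are processed intensities on a scale on which each array's 75th percentile is 100, and the number of arrays limits their precision. The tissue label fits its markers: the 11 hepatocyte markers measured, such as albumin, summed to a scaled signal of 176710 in the MCT 330 sample, 195230 and 242460 in the MCT 270 samples, and 250060 and 226490 in the control samples.

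RNA of the listed genes was lower after monocrotaline, more so at the higher dose. At MCT 330 the median log2 fold change over control was -1.55 for the 38 members, with quartiles of -2.07 and -0.88, while all 24805 genes had a median of -0.25. Limma, the linear model fitted to all genes together, called 27 of the 38 members lower and 0 higher at a Benjamini-Hochberg adjusted p under 0.05; over all genes the same rule called 24% lower and 9.5% higher. A fall of 2-fold or more was seen in 28 members, or 73.7%, and in 23.1% of all genes. The MCT 330 sample lay below both control samples for 35 members, overlapped them for 2 and lay above both for 1, whereas 54.5% of all genes lay below both and 32.1% above. Because earlier results of the same arrays guided the choice of the list, nothing is read from these shares.

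At MCT 270 the median of the members was -0.56, with quartiles of -1.11 and 0.01, and that of all genes was -0.02. Limma called 0 members and 0.0% of all genes in either direction, although 8.78% of genes were lower and 9.81% higher at an unadjusted p under 0.05. The count depends on the processing: 16 members were called lower at MCT 270 with MCT 330 replicate 1 as a separate sample, 24 with 9 arrays as separate samples, 12 with normexp and 11 among probes well above background on all arrays. In either direction these settings called, in the same order, 1783 of 24632, 9603 of 24805, 522 of 24805 and 410 of 20165 genes. A fall of 2-fold or more was seen in 12 members, or 31.6%, against 3.2% of all genes. Both MCT 270 samples lay below both control samples for 26 members, overlapped for 9 and lay above for 3; 27.4% of all genes lay below and 25.4% above. Within the first shared scan the median of the members was -0.56 in MCT 270 arrays over control arrays, and within the second it was -0.67, with 28 and 29 of the 38 members below 0. The second scan holds only replicate 3 of each group, which was averaged with replicate 2 of the first scan, so it is not an independent repeat.

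Length was also compared in genes that were not on the list. The 460 other measured genes of 250 kb or more had a median log2 fold change of -1.02 at MCT 330 and -0.22 at MCT 270. Genes of 10 to 100 kb, 9660 in number, had medians of -0.09 at MCT 330 and 0.01 at MCT 270. By class of span, with the members left out, the MCT 330 medians were -0.28 under 10 kb, -0.07 from 10 to 30 kb, -0.12 from 30 to 100 kb, -0.40 from 100 to 250 kb, -1.01 from 250 to 500 kb and -1.06 above 500 kb. The 2 longest classes lay apart from the shorter ones and differed little from each other, while the class of 100 to 250 kb was close to that under 10 kb. At MCT 270 the same classes had medians of -0.03, 0.01, -0.00, -0.07, -0.22 and -0.25. Of the other long genes 49.1% were called lower and 2.83% higher at MCT 330, and 0.0% were called at MCT 270.

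**Figure D1:**
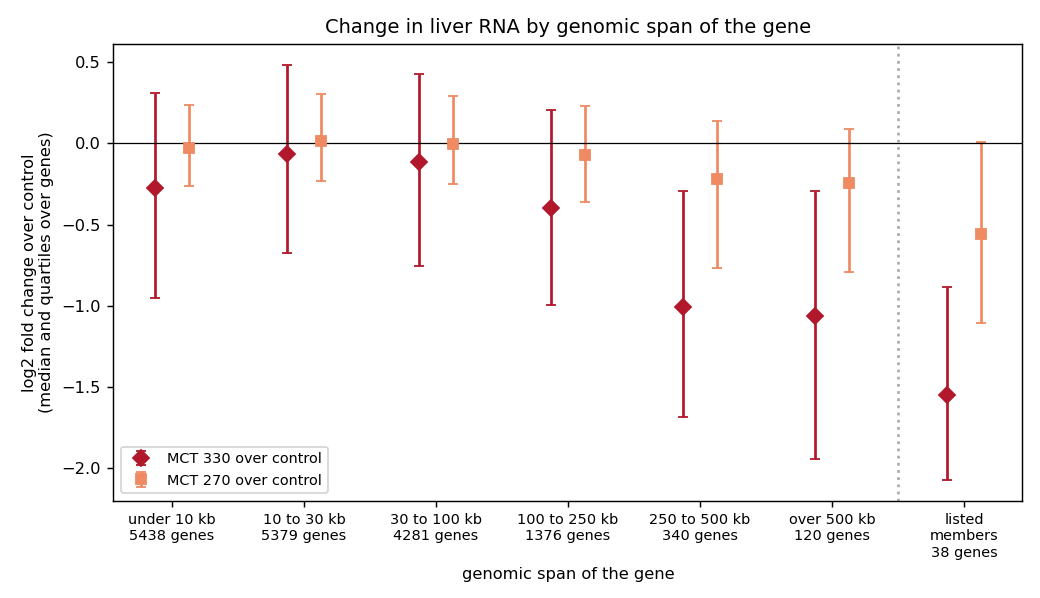
The plot gives the median log2 fold change over control (vertical axis) for genes grouped by genomic span (horizontal axis), with the listed members left out of the span classes and shown at the right; diamonds are MCT 330 over control, squares MCT 270 over control, and bars run between the quartiles over genes. At MCT 330 the classes below 100 kb have medians of -0.28, -0.07 and -0.12, the classes of 250 to 500 kb and over 500 kb -1.01 and -1.06, and the members -1.55.

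The shift of the other long genes could be followed in each sample as the difference between their median change and that of genes of 10 to 100 kb, both relative to the mean of the controls. This difference was -0.93 in the MCT 330 sample, -0.33 and -0.17 in the MCT 270 samples, and -0.04 and 0.04 in the control samples. Since the change is taken from the mean of the controls, the control values mirror each other by construction and show only the gap between these samples. The order of the 5 samples follows the dose, and both MCT 270 samples lie below both control samples. With normexp background correction and quantile normalization the size of the shift was smaller, at -0.38 for MCT 330 and -0.14 for MCT 270.

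Signal strength was matched as well. Among genes whose control signal fell within the middle range of the members, between their quartiles, 89 other long genes had a median of -1.24 at MCT 330 and -0.48 at MCT 270. The 1892 genes of 10 to 100 kb with the same control signal had medians of 0.09 and -0.00, and 12.1% of them fell by 2-fold or more at MCT 330, against 56.2% of the 89 long genes. All 38 members, not limited to that range of signal, had medians of -1.55 and -0.56. Because the list was chosen with results in view, nothing is read from their place beside these genes.

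Metabolic and mitochondrial enzymes held some of the lowest values on the list: 5 of the 7 were called lower at MCT 330, with a median log2 fold change of -2.18. This count, and those of the other roles below, stand beside the 24% of all genes called lower at MCT 330, and nothing is read from them. Immp2l, a peptidase of the inner mitochondrial membrane, spans 931.5 kb. Its scaled signal was 11.7 in the MCT 330 sample, 24.5 and 30.0 in the MCT 270 samples, and 213 and 206 in the control samples. All treated samples lay far below both controls, with log2 fold changes of -4.16 ± 0.22 at MCT 330 and -2.95 ± 0.18 at MCT 270 (SE of the fit). Fars2, the phenylalanyl-tRNA synthetase of mitochondria, had signals of 97.8 at MCT 330, 177 and 243 at MCT 270, and 1094 and 851 in controls. That is 10.1% of the control level at MCT 330 and 21.5% at MCT 270. Dpyd, the rate-limiting enzyme of pyrimidine breakdown, was the brightest member, at 423 in the MCT 330 sample, 1079 and 1616 in the MCT 270 samples, and 4308 and 3758 in the control samples. Its groups did not overlap, and its log2 fold change was -3.25 ± 0.31 at MCT 330 and -1.61 ± 0.25 at MCT 270.

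Fhit, a hydrolase of diadenosine polyphosphates that spans 1612.0 kb, stood at nearly the same level at both doses: 9.87 at MCT 330, 10.3 and 12.7 at MCT 270, and 50.6 and 39.3 in controls. The treated samples were alike and all below the controls, at 22.1% of the control level at MCT 330 and 25.6% at MCT 270. Fto, which removes methyl groups from adenosine in RNA, had a log2 fold change of -1.02 ± 0.27 at MCT 330 and was called lower, and its MCT 270 samples overlapped the controls. Wwox, an oxidoreductase with WW domains, had -0.84 ± 0.24 and was not called. Macrod2, which removes ADP-ribose from proteins and spans 1997.7 kb, had signals of 59.1 at MCT 330, 64.8 and 70.0 at MCT 270, and 76.7 and 83.0 in controls. Its treated samples lay below both controls by a small margin, and its log2 fold change of -0.43 ± 0.19 was not called, although it is the second longest gene listed.

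Phosphatases, kinases and other signalling proteins were called lower in 6 of 8 cases at MCT 330, with a median of -1.82, and most of the difference lay between the doses, since the median at MCT 270 was -0.32. Ptprd, a receptor tyrosine phosphatase and at 2270.5 kb the longest member, had signals of 8.08 at MCT 330, 35.6 and 36.0 at MCT 270, and 42.8 and 51.5 in controls. The MCT 270 samples were only slightly below the controls and the MCT 330 sample was far below both groups, with a log2 fold change of -2.54 ± 0.21. Ptprg, a phosphatase of the same family, had 5.82 at MCT 330, 15.2 and 16.0 at MCT 270, and 29 and 30.0 in controls. The 3 groups stood apart, at -2.34 ± 0.19 for MCT 330 and -0.92 ± 0.15 for MCT 270. Ptprk, the third phosphatase, was also called lower, at -1.67 ± 0.31.

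Prkce, the epsilon form of protein kinase C, had signals of 16.4 at MCT 330, 52.7 and 62.6 at MCT 270, and 68.8 and 67.9 in controls. Like Ptprd it changed little at the lower dose, with -2.06 ± 0.21 at MCT 330 and -0.25 ± 0.17 at MCT 270. Dock1, an exchange factor for Rac, was lower at both doses, with -1.97 ± 0.20 at MCT 330 and -1.58 ± 0.16 at MCT 270. Rptor, the subunit that defines mTOR complex 1, had -1.34 ± 0.20 at MCT 330 and was called lower. Prkg1, the cyclic GMP dependent kinase, and Pde4d, a phosphodiesterase of cyclic AMP, were not called. Pde4d had signals of 15.2 at MCT 330, 21.5 and 23.4 at MCT 270, and 23.2 and 19.5 in controls, so that the MCT 330 sample lay below both other groups, by -0.49 ± 0.21 from control, and the MCT 270 samples overlapped the controls.

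All 5 junction and scaffold proteins were called lower at MCT 330, with a median of -1.88. Magi1, a scaffold of tight junctions, had signals of 23.4 at MCT 330, 41.4 and 39.7 at MCT 270, and 114 and 88.3 in controls. Its groups did not overlap, and its log2 fold changes were -2.10 ± 0.24 and -1.31 ± 0.19. Gphn, gephyrin, which completes the molybdenum cofactor in liver and anchors receptors at synapses, had 263 at MCT 330, 716 and 930 at MCT 270, and 1164 and 1023 in controls. Its fall lay mainly at the higher dose, with -2.05 ± 0.25 at MCT 330 and -0.42 ± 0.20 at MCT 270. Lpp, a LIM protein of adhesion sites, had -1.88 ± 0.19 at MCT 330, Pard3, a polarity protein, -1.04 ± 0.19, and Magi2, a relative of Magi1 that spans 1485.4 kb, -0.77 ± 0.20.

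Of the 7 proteins of membrane traffic and cilia, 6 were measured and 5 called lower at MCT 330, with a median of -1.88. Bbs9, a subunit of the BBSome that carries cargo to cilia, had signals of 2.10 at MCT 330, 2.07 and 2.22 at MCT 270, and 41.5 and 46.1 in controls. All treated samples lay far below the controls, at 4.79% of control at MCT 330 and 4.91% at MCT 270, and the doses differed by -0.03 ± 0.20 on the log2 scale. Its processed signal at MCT 330 was 13.6 or more, which Feature Extraction still marked as well above background on all arrays. The treated signals lay close to the lowest so marked, so a difference between the doses could be hidden. Trappc9, a subunit of a vesicle tethering complex, had 27 at MCT 330, 53.1 and 51.2 at MCT 270, and 112 and 115 in controls. The 3 groups were well apart, at -2.07 ± 0.19 for MCT 330 and -1.12 ± 0.15 for MCT 270. Vps13b, a lipid transfer protein of the Golgi, had -2.02 ± 0.23 at MCT 330, the endosomal SNARE Vti1a -1.75 ± 0.19 and Tbc1d5, a GTPase-activating protein that acts with retromer, -1.49 ± 0.19. Exoc4, a subunit of the exocyst, was not called: it had 11.3 at MCT 330, 14.9 and 16.3 at MCT 270, and 12.9 and 16.8 in controls. The MCT 330 sample lay just below the controls and the MCT 270 samples lay among them. These values are of the brightest Exoc4 probe. The other Exoc4 probe past the filter had log2 fold changes of -1.305 at MCT 330 and -0.358 at MCT 270. Nbea, neurobeachin, was not well above background on any array.

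Transcription and chromatin proteins had the highest median of the roles, -1.10, and 3 of the 8 measured were called lower at MCT 330, a share not far from the 24% of all genes. Cux1, a homeodomain factor, had -1.67 ± 0.20 at MCT 330 and -1.07 ± 0.17 at MCT 270. Tcf4, a helix-loop-helix factor, had -1.56 ± 0.21 and -1.20 ± 0.17, and Sox6, an HMG-box factor, had -1.02 ± 0.26 and 0.32 ± 0.22. Foxp1, a forkhead factor, had -1.37 ± 0.38 at MCT 330, the polyglutamine protein gene Atxn1 -1.19 ± 0.37 and Zbtb20, a zinc finger regulator of liver genes, -0.82 ± 0.28; none of these was called.

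Rora, an orphan nuclear receptor that drives clock and lipid genes, spans 734.8 kb and had signals of 125 at MCT 330, 143 and 118 at MCT 270, and 120 and 134 in controls. All samples overlapped, and its log2 fold change at MCT 330 was -0.03 ± 0.22. Nfia, a nuclear factor I protein, had 2.75 at MCT 330, 3.12 and 2.97 at MCT 270, and 0.966 and 3.04 in controls. It was dim throughout, its controls lay furthest apart of all members, by 1.65 log2 units, and it was not well above background on 2 control arrays, so that no direction can be given. Atxn1 and Prkg1 had MCT 270 samples above both controls and an MCT 330 sample below both. Prkg1 was, like Nfia, well above background on only 1 of the 3 control arrays. Smyd3, a lysine methyltransferase, had 3 probes that all failed the brightness filter. Processed signals of its 3 probes ran from 1.71 to 4.47 on MCT 330 arrays, 1.85 to 18.9 on MCT 270 arrays and 4.13 to 24.6 on control arrays, too close to background for a fold change.

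The remaining 4 members have other roles, and 3 of them were called lower at MCT 330. Tmtc2, which adds O-mannose to cadherins in the endoplasmic reticulum and spans 386.8 kb, was the lowest member. Its signal was 2.47 at MCT 330, 10.1 and 17 at MCT 270, and 118 and 83.8 in controls. Each step of dose set it apart, with -5.33 ± 0.40, or 2.48% of control, at MCT 330 and -2.93 ± 0.33, or 13.1%, at MCT 270. Ube2e2, a ubiquitin-conjugating enzyme, had -1.53 ± 0.19 at MCT 330 and Mad1l1, a spindle checkpoint protein, -1.40 ± 0.25. Ext1, which builds heparan sulfate chains and at 277.9 kb is the shortest member, had 168 at MCT 330, 160 and 161 at MCT 270, and 129 and 155 in controls. It was the member whose MCT 330 sample lay above both controls, by a log2 fold change of 0.25 ± 0.21, and it was not called.

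**Figure D2:**
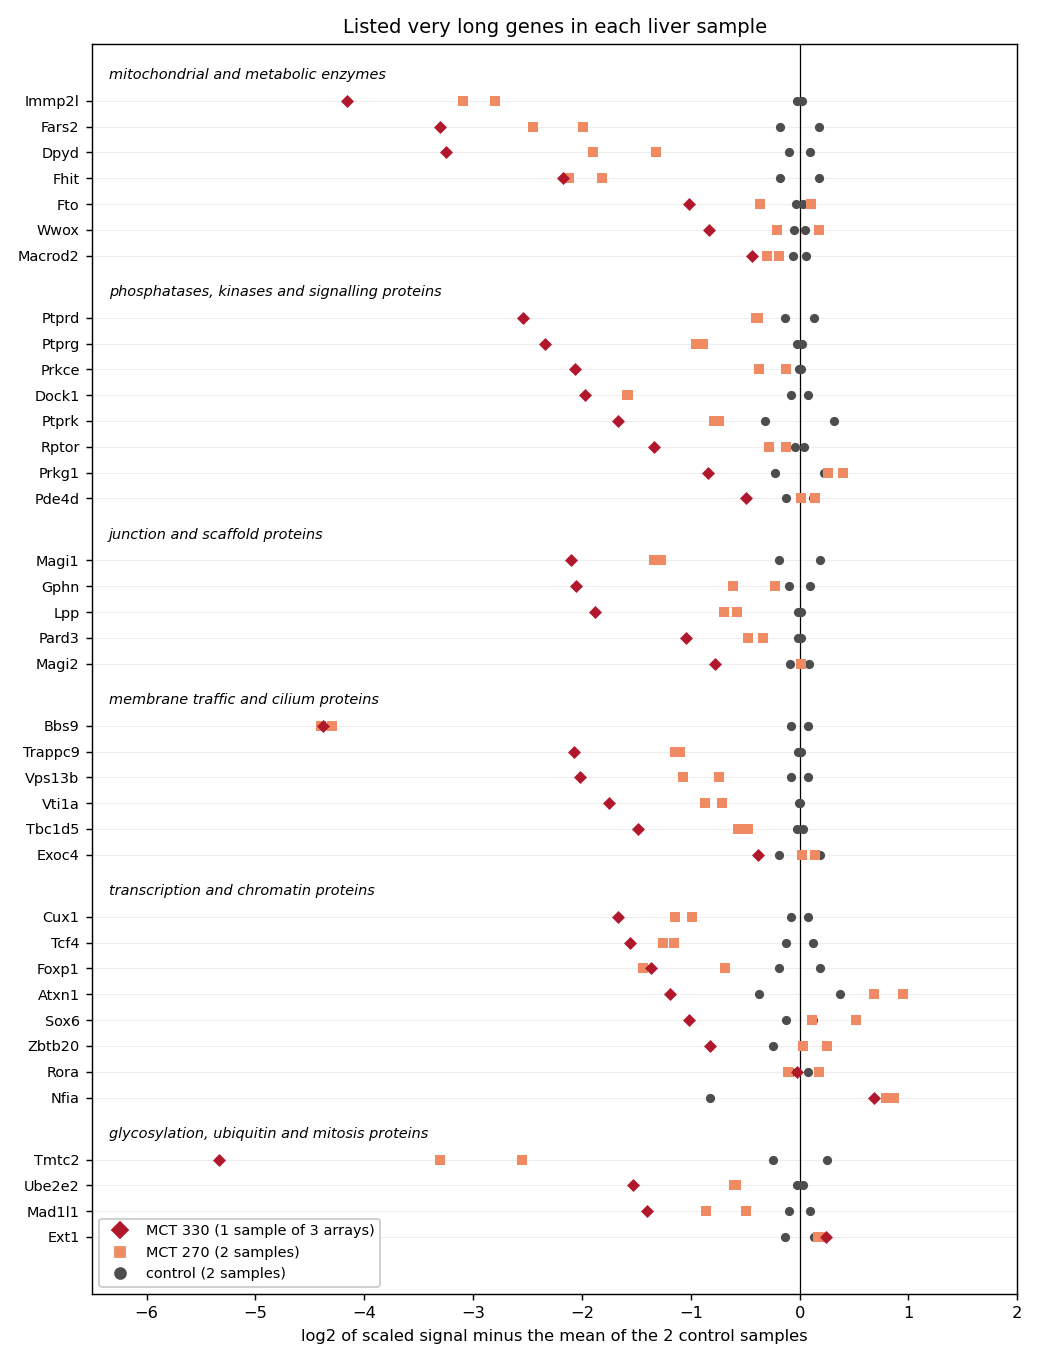
Each row is 1 listed gene, grouped by role and ordered by its MCT 330 value, and each point is 1 liver sample: the horizontal axis gives the log2 of its scaled signal minus the mean of the 2 control samples, with diamonds for MCT 330 (1 sample of 3 arrays), squares for MCT 270 (2 samples) and circles for control (2 samples). The MCT 330 diamond lies left of both control circles in 35 of the 38 rows, furthest for Tmtc2 at -5.33, and Rora, Ext1 and Nfia are the exceptions.

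The promoters of the 3 lowest and 2 highest members with a RefSeq promoter entry are printed so that the range of the list can be compared at its start sites. Each runs from 250 bases before to 50 bases after the annotated start, on the strand of the gene in GRCm38.p6, and CG dinucleotides are in capitals. The Tmtc2 window is chr10:105574430-105574729 on the minus strand, that of Bbs9 chr9:22475465-22475764 on the plus strand, that of Immp2l chr12:41023840-41024139 on the plus strand, that of Nfia chr4:97581693-97581992 on the plus strand and that of Rora chr9:68653536-68653835 on the plus strand.
Tmtc2: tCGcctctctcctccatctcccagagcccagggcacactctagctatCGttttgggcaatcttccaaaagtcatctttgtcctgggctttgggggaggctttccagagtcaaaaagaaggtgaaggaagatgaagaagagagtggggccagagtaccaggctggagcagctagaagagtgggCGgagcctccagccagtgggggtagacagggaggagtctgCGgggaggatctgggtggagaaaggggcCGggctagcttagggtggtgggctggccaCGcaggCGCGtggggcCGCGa
Bbs9: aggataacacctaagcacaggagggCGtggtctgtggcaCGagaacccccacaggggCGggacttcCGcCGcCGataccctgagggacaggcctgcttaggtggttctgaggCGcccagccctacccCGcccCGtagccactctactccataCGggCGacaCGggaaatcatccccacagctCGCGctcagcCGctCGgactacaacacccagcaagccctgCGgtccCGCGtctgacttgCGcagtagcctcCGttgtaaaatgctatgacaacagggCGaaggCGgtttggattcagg
Immp2l: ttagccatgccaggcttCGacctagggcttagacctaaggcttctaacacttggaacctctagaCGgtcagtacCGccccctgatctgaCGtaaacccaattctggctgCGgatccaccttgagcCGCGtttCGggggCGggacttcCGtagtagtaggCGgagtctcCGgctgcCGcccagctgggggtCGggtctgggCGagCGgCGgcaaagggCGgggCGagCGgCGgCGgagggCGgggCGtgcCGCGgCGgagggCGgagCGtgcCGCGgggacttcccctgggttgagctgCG
Nfia: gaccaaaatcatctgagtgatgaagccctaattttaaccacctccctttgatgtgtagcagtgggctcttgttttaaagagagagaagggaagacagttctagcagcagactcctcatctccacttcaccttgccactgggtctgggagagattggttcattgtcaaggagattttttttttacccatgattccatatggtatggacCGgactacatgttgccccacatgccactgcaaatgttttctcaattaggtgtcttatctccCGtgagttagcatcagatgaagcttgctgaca
Rora: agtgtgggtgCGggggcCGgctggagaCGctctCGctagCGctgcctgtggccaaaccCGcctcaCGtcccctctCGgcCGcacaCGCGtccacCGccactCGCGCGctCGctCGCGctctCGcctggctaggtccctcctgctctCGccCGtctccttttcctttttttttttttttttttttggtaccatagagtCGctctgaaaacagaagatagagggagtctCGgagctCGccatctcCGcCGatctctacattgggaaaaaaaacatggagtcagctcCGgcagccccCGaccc
Tmtc2 holds 10 CG dinucleotides, Bbs9 23, Immp2l 32, Nfia 2 and Rora 28, so both ends of the list include windows rich in CG. The table held a promoter for 31 of the 41 members, with a median of 25 CG dinucleotides (range 2 to 42) and a median GC content of 62.7%. The 357 other measured genes of 250 kb or more with an entry had medians of 20 CG and 62.3% GC, and the 13475 measured genes with an entry had 17 CG and 58.3% GC. TATAAA on either strand was found in 0.0% of the members' windows, 8.4% of those of the other long genes, 10.7% of those of the measured genes and 14.2% of the 27025 promoters in the table. The motif TGANTCA, searched on both strands as the site AP-1 is known to bind, was found in 0.0% of the members' windows, 5.32% of those of the other long genes, 6.33% of those of the measured genes and 7.93% of all promoters. Absence of these letters from a window says nothing about the factors themselves.

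Probes of a member can be annotated to the same transcript or to different ones, so members with several probes were compared probe by probe. The probes of Ptprd, those of Vps13b and those of Wwox were in each case annotated to the same transcript. Of the 38 members, 16 had at least 2 probes past the filter, 38 probes in all, and 37 of these lay below 0 at MCT 330, 25 of them by 2-fold or more. All probes lay below 0 for 15 of the 16. Of all 24805 genes, 15201 lay below 0 and 23.1% fell by 2-fold or more at MCT 330, and nothing is read from the probe counts. In 5 members the probes lay more than 1 log2 unit apart. Ptprd had 1 probe at -2.54 and another at -0.10, and the 4 Pard3 probes ranged from -2.68 to -1.04. Vps13b was the member whose probes pointed both ways, but its higher probe was not well above background on any control array. The value given above for Wwox, -0.84, comes from the brightest of its 3 probes; another probe stood at -1.90, and the third was at least 10.1-fold lower at MCT 330 than in control, being well above background on all control arrays and on no treated array. A level for Wwox as a whole therefore depends on the probe. The second probe of Magi1, well above background on all control arrays and on no MCT 330 array, was at least 3.92-fold lower at MCT 330. This probe and the third Wwox probe passed the filter through control arrays alone. The higher Vps13b probe passed it through MCT 330 arrays alone.

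**Figure D3:**
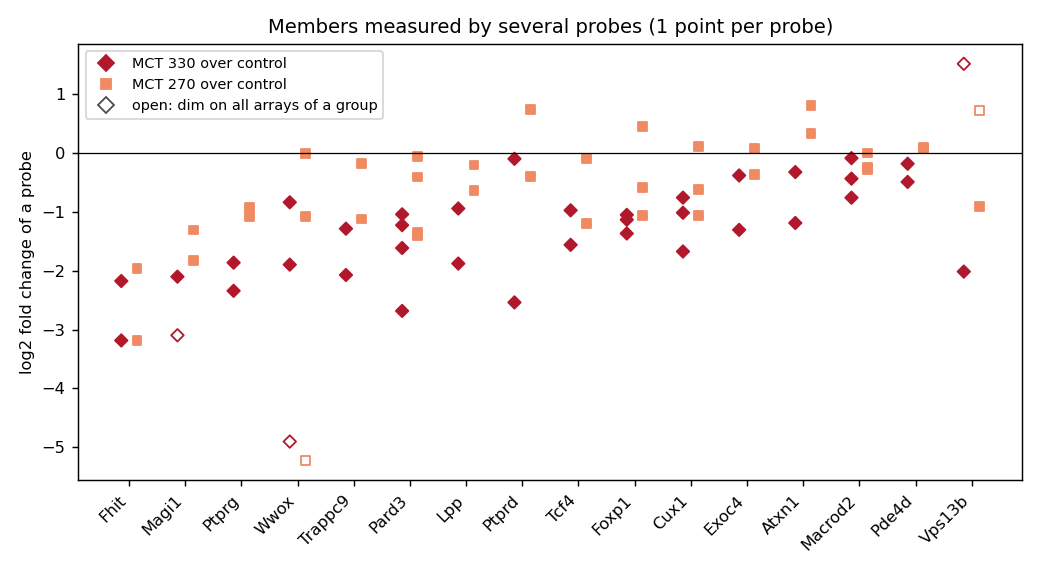
Each point is 1 probe of a member that has 2 or more probes past the filter, with its log2 fold change over control on the vertical axis and members along the horizontal axis; diamonds are MCT 330 over control, squares MCT 270 over control, and open symbols mark probes well above background on no array of the treated or of the control group, drawn at the ratio of their measured signals, which is not a bound. At MCT 330, 37 of the 38 probes lie below 0; 2 Wwox probes are at -0.84 and -1.90, and the open Wwox symbol at -4.91 is the probe whose bound is 10.1-fold.

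The doses were also compared directly. Relative to MCT 270, the MCT 330 sample was lower for 37 of the 38 members, with a median log2 fold change of -0.92 against -0.24 for all genes. Limma called 17 members lower and 0 higher, against 17.1% lower and 5.03% higher over all genes. The MCT 330 sample lay below both MCT 270 samples for 34 members, against 56.1% of all genes, overlapped them for 3 and lay above for 1, Ext1, against 31.1% of all genes. Ptprd differed most among the called signalling genes, by -2.15 ± 0.21, and Prkce by -1.81 ± 0.21. By contrast Fhit (-0.21 ± 0.26) differed little between the doses. Bbs9 (-0.03 ± 0.20) did so too, but its treated signals lay close to the lowest that counted as well above background. A difference between the doses could therefore be hidden for Bbs9. Of the 28 members that were 2-fold or more lower at MCT 330, 12 were so at MCT 270 too and 16 were not. Without MCT 270 replicate 1, which leaves a single MCT 270 sample, limma called 0 of the members and 0 of all genes between the doses, although the median of the members was -0.87.

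Length and size of change were not graded within the list. Spearman's rho between span and log2 fold change at MCT 330 was 0.10 over the 38 members and -0.12 over the 460 other long genes, all measured in the same 5 samples. Ptprd, Macrod2 and Fhit are the 3 longest members, and their log2 fold changes were -2.54, -0.43 and -2.18. The threshold of 250 kb did not mark a step either. Just inside it, Cntln (250.1 kb) had -2.66, Mlip (250.7 kb) -0.71 and Camk2d (250.8 kb) -0.46 at MCT 330; just outside it, Dync2h1 (249.8 kb) had -3.09, Lama3 (249.6 kb) -1.28 and Rgl1 (249.5 kb) -1.25. Genes of 200 to 250 kb had a median of -0.73 and other genes of 250 to 300 kb -0.85.

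**Figure D4:**
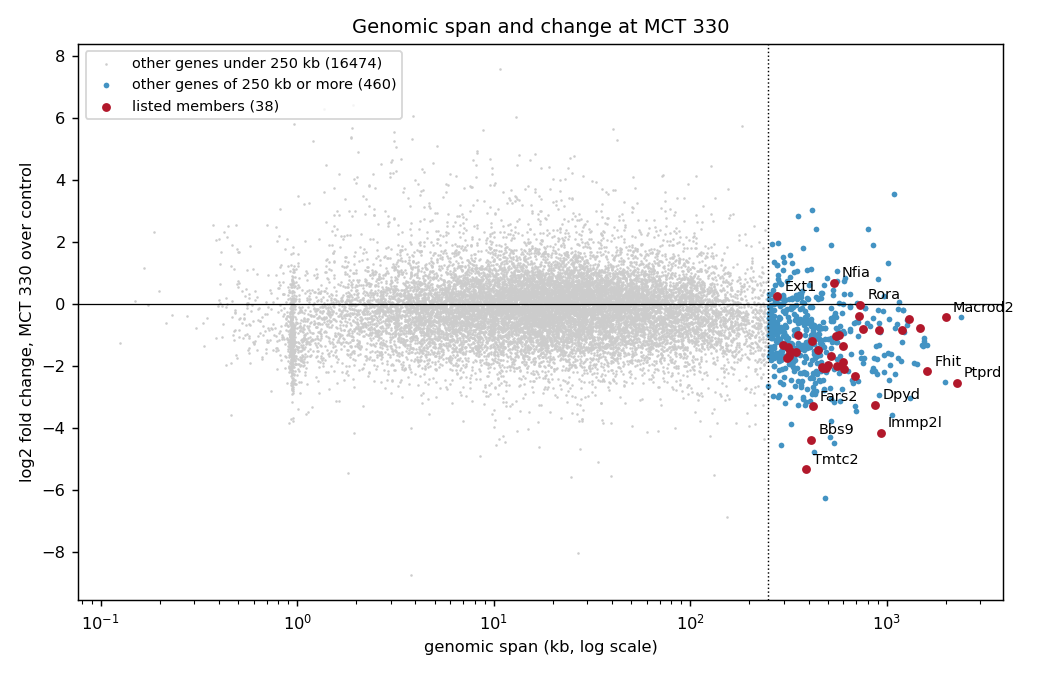
Each point is 1 gene, with its genomic span in kb on a logarithmic horizontal axis and its log2 fold change of MCT 330 over control on the vertical axis; red points are the 38 listed members, blue points the 460 other genes of 250 kb or more, grey points shorter genes, and the dotted line marks 250 kb. Right of the line most points lie below 0, among members and other long genes alike, and Slc25a21 at -6.26, measured on 1 of the 3 MCT 330 arrays, is the lowest blue point.

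The lowest and highest of the other long genes are given next, with the number of arrays that measured them where it was not all. Slc25a21, a mitochondrial carrier of dicarboxylates that spans 484.8 kb, had signals of 1.64 at MCT 330, 14.7 and 21 at MCT 270, and 131 and 121 in controls. It was called lower at MCT 330 by limma, with a log2 fold change of -6.26 ± 0.28 and an adjusted p of 0.00871. Slc25a21, Atg10 and Adgrv1 were each well above background on only 1 of the 3 MCT 330 arrays, so the sizes of their fold changes are uncertain. Atg10, an enzyme of autophagosome formation, had -4.57 ± 0.27, the adhesion receptor gene Adgrv1 -4.49 ± 0.35 and Syt1, a synaptotagmin, -4.29 ± 0.39, each with the same adjusted p. Fhod3, a formin, was well above background on no treated array and was at least 5.84-fold lower at MCT 330. Among the highest, Nrg1, a ligand of ErbB receptors that spans 1084.2 kb, had 70.1 at MCT 330, 5.35 and 3.52 at MCT 270, and 6.22 and 5.73 in controls. Its MCT 330 sample stood alone, with a log2 fold change of 3.55 ± 0.31 and an adjusted p of 0.00871 by limma. Pcdh7, a protocadherin, was well above background on 0 control arrays and was at least 3.11-fold higher at MCT 330. Gse1 was well above background on 1 of the 3 control arrays and had 2.83 ± 0.63. Camta1, at least 1.19-fold higher at MCT 330 with 0 control arrays above background, and Thsd7a, at 2.42 ± 0.76 with 1, were not called. Pcdh7, Gse1, Camta1 and Thsd7a passed the filter only through treated arrays, so no test is read from them.

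Genes that bear on the passage of polymerase through a gene, whether they aid it or hold it back, were examined from 3 lists. Of 32 measured elongation factors, 1 was called lower and 3 higher by limma at MCT 330, with a median log2 fold change of 0.16, beside 24% lower and 9.5% higher over all genes. Cdc73, a subunit of the PAF complex, was higher by 1.12 ± 0.20, Eaf1, a partner of the ELL elongation factors, by 0.97 ± 0.20 and Larp7, which binds the 7SK RNA, by 0.72 ± 0.19, with limma adjusted p of 0.0191, 0.0257 and 0.0450.

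Of 16 measured genes of transcription-coupled repair, 1 was called lower and 4 higher at MCT 330, with a median of 0.12. Ercc3, a helicase of TFIIH, was higher by 1.06 ± 0.20 (limma adjusted p of 0.0212), the repair nuclease Ercc5 by 1.02 ± 0.22 (0.0289) and Gtf2h1, a TFIIH subunit, by 0.91 ± 0.21 (0.0328). Xpa, which checks the damaged strand, was lower at both doses, with signals of 487 at MCT 330, 423 and 479 at MCT 270, and 1098 and 938 in controls, and was called at MCT 330 (-1.06 ± 0.22, adjusted p of 0.0248). Of the 11 topoisomerase and adduct repair genes 0 were called at MCT 330, where 2 were higher and 0 lower at an unadjusted p under 0.05, against 14.6% and 32.7% of all genes, and the median was -0.16. At MCT 270 limma called 0 genes of the 3 lists. At an unadjusted p under 0.05, 3 elongation factors were lower and 1 higher, 1 repair gene was lower and 1 higher, and 1 topoisomerase gene was lower and 2 higher, beside 8.78% lower and 9.81% higher over all genes. The count at MCT 330 depends on MCT 270 replicate 1: without it 2 genes of the 3 lists were called, in place of 9.

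Markers of other liver cells also differed between the groups, and not every list changed at both doses. The 11 markers of sinusoidal endothelium summed to a scaled signal of 1005 at MCT 330, 1473 and 1764 at MCT 270, and 3888 and 3981 in controls, and 9 were called lower at MCT 330, among them Clec4g at -3.45 ± 0.29 (limma adjusted p of 0.00871). The 12 stellate cell markers summed to 2590 at MCT 330, 2930 and 3174 at MCT 270, and 5186 and 5644 in controls, with 7 called lower and 1 higher. The 10 Kupffer cell markers summed to 1229 at MCT 330, 1898 and 1742 at MCT 270, and 2762 and 3307 in controls, with 6 called lower. The 9 neutrophil markers measured summed to 4076 at MCT 330, 931 and 844 at MCT 270, and 1178 and 883 in controls, with 6 called higher. The 11 hepatocyte markers had a median log2 fold change of -0.39, with 4 called lower and 1 higher, and the 6 cholangiocyte markers a median of 0.98, with 1 called each way. Over all genes limma called 24% lower and 9.5% higher at MCT 330, and nothing is read from the counts per marker list. No marker list was at 0 in any group, and the part of these cell types in the values of the long genes was not tested.

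**Figure D5:**
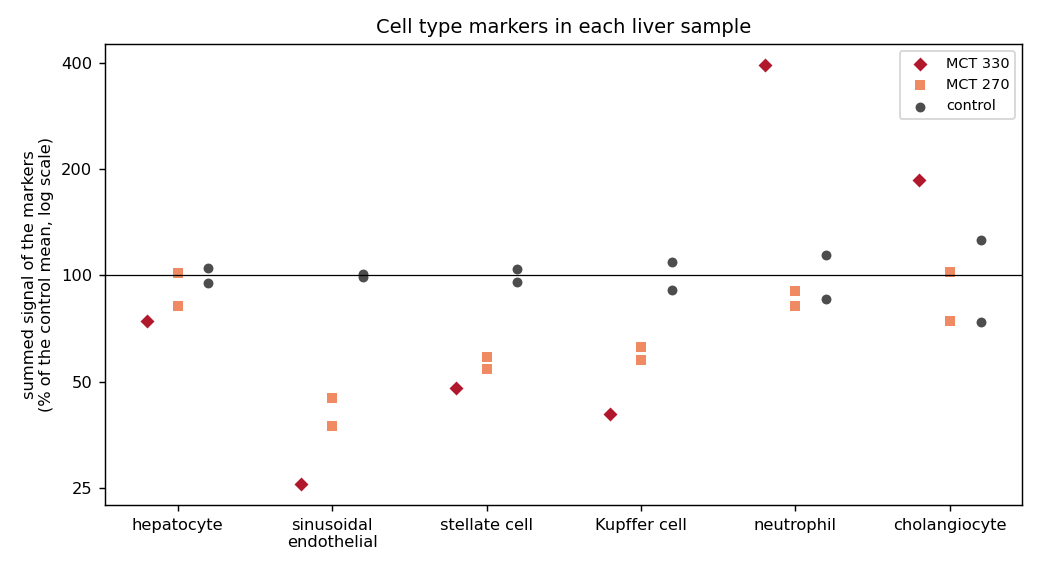
Each point is 1 liver sample, and the vertical axis gives the summed scaled signal of a cell type's markers as a percentage of the control mean on a logarithmic axis, with diamonds for MCT 330, squares for MCT 270 and circles for control. Sinusoidal endothelial, stellate and Kupffer cell markers lie below the controls at both doses, lowest at MCT 330, while neutrophil markers stand above the controls at MCT 330, where they sum to 4076.

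The microRNA arrays gave a readout that the choice of the list did not use, because some microRNAs are cut from introns of the members. By RefSeq positions on GRCm38.p6, Lpp holds miR-28a, Cux1 miR-721 and Pde4d miR-582 and miR-1904 on its own strand. Their mature sequences are shown with the seed, bases 2 to 8, in capitals.
miR-28a-5p: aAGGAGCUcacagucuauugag
miR-28a-3p: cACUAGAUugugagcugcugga
miR-721: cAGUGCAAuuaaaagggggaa
miR-582-5p: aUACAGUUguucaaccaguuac
miR-582-3p: uAACCUGUugaacaacugaac
miR-1904: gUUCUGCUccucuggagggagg
The 6 seeds all differ. They lie at chr16:24827868-24827889 (miR-28a-5p), chr16:24827908-24827929 (miR-28a-3p), chr5:136375777-136375797 on the minus strand (miR-721), chr13:109324753-109324774 (miR-582-5p), chr13:109324790-109324810 (miR-582-3p) and chr13:109903819-109903840 (miR-1904), on the plus strand except where stated.

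Of the probes for these microRNAs, that of miR-28a-3p and that shared by miR-28a-5p and miR-28c were bright enough to be among the 490 microRNA probes tested. The shared probe also reads miR-28c, so its signal cannot be credited to the miR-28a of Lpp alone. For miR-28a-3p the intensity over background was 22.0, 55.5 and 66.0 on MCT 330 arrays, 39.0, 60.5 and 44.0 on MCT 270 arrays, and 65.0, 83.5 and 57.0 on control arrays. The groups overlapped, and its log2 fold change was -0.23 ± 0.22 at MCT 330 (95% interval -0.72 to 0.26; limma adjusted p of 0.606) and -0.10 ± 0.22 at MCT 270 (-0.59 to 0.39; adjusted p of 0.783). The authors' normalized values gave -0.605 and -0.572, not called, and without MCT 330 replicate 1 the MCT 330 value was -0.01. The probe shared by miR-28a-5p and miR-28c had intensities of 121.5, 193.5 and 226.5 at MCT 330, 45, 255.0 and 205.5 at MCT 270, and 159.0, 214.5 and 187.5 in controls. It too showed no difference beyond the spread, with -0.04 ± 0.35 at MCT 330 (-0.83 to 0.75; adjusted p of 0.942) and -0.21 ± 0.35 at MCT 270 (-1.0 to 0.58; adjusted p of 0.721). The authors' normalized values gave -0.07 and -0.53, not called. Over all 490 probes limma called 5.31% at MCT 330 and 26.7% at MCT 270. The messenger RNA of Lpp, by its brightest probe, had log2 fold changes of -1.88 at MCT 330 and -0.63 at MCT 270. Its other probe past the filter had smaller ones, of -0.94 and -0.20. The 2 platforms were normalized apart, and the difference between them was not tested. A further probe, for miR-28a-5p alone, was at 17, 11 and 28 on MCT 330 arrays, 15, 32 and 18.5 on MCT 270 arrays, and 26, 34 and 28.5 on control arrays, and was not tested. The probes of miR-721, miR-582-5p, miR-582-3p and miR-1904 also did not reach an intensity of 30 over background on all arrays of any group, with miR-721 at 111.5, 84.5 and 14 on MCT 330 arrays, 13, 13.5 and 6.5 on MCT 270 arrays, and 28.5, 21 and 25 on control arrays.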

How the data were processed

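Messenger RNA values are the authors' deposited spot intensities, background-subtracted and in 1 colour (Cy3) per array; the file headers name Agilent Feature Extraction 11.0.1.1 as their source. MicroRNA values are the deposited foreground and background intensities; the authors' normalized column, a ratio of foreground minus background to 1 number per array, was used as an alternative. The mRNA arrays were annotated on mm9, while spans and printed sequences come from RefSeq on GRCm38.p6.

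Here log2 processed signal was taken minus each array's 75th percentile. Control and outlier spots were left out, spots of a probe averaged, probes dropped unless some group had them well above background on each of its arrays, and each gene took its brightest probe. Symbols were matched for 21464 of 33258 systematic names, and 7833 of the 24805 genes had no span in the table. Arrays of a group were joined where their difference was within the noise between repeated spots. The planned limit was a ratio of 1; by the robust SD, MCT 330 replicate 1 exceeded it slightly (1.03 against replicate 2 and 1.02 against replicate 3) but lay within the error of the noise estimate (1.05), and was joined after 194 stray spots were left out. Although the titles number the arrays as mice 1 to 9, arrays that agree within spot noise count as 1 sample, and p-values measure the spread between the samples left. Groups were compared in 1 limma fit (limma 3.58.1, R 4.3.3) with Benjamini-Hochberg adjustment, checked on simulated data. For a probe well above background on no array of a group, the fold is a bound: the bright group's mean against, per array, the higher of the probe's own signal and the lowest signal well above background. MicroRNA intensities were normexp corrected (offset 50), quantile normalized on the log2 scale and tested where some group had 30 or more over background on each array.

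The members and lists were chosen with earlier results of these data known. Values per sample are given for at least the 12 lowest and 6 highest members at MCT 330; named besides are the 5 lowest and 5 highest other long genes, at most 4 genes per list among those with the smallest p, the host microRNAs on the array and the promoters of the 3 lowest and 2 highest members. The values of 1 gene of the elongation factor list are not reported here. Members on the list but without a probe or under the filter have no value. Alternatives were other normalizations, filters, probe rules, joins, blocks and left-out arrays.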

Additional observations from a re-analysis of the deposited data

How the results depend on the processing

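At MCT 330 the median of the members stayed between -1.61 and -1.21 over all alternatives. It was -1.21 with normexp and quantile normalization and -1.41 with the mean of the probes of a gene. With any replicate left out it lay between -1.58 and -1.52. On the mRNA arrays, leaving out an array of the group not compared cannot change a fold change. Most of the other arrays have a near-identical partner in their sample, so such ranges say little about the spread between livers. Members called lower at MCT 330 numbered 21 to 35. Scaling moved the median of all genes at MCT 330 from -0.25 to -0.05 with quantile normalization, and relative to it the members stood at -1.29 and -1.45; the share of calls that were lower was 71.6% and, with quantile normalization, 58.2%, or 51.6% with normexp. The shift of the other long genes against genes of 10 to 100 kb at MCT 330 was -0.93, -0.80 with quantile normalization, -0.38 with normexp, -0.95 in protein coding genes alone, an alternative chosen after seeing the data, and -0.95 to -0.87 with a replicate left out; at MCT 270 it was -0.23, -0.14 with normexp and -0.33 to -0.23 with a replicate left out. The cause of these moves was not tested. Between the doses the median of the members was -0.92, -0.77 with quantile normalization and -0.57 with normexp.

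Counts of calls depended on which arrays count as samples and on the filter. With 9 arrays as separate samples limma called 18139 genes at MCT 330, 9603 at MCT 270 and 16200 between the doses, with 24 and 31 members lower in the last 2 comparisons and 41 and 32 genes of the 3 machinery lists at MCT 330 and MCT 270. With a replicate block added it called 18004, 9384 and 16034 genes and 23 and 31 members lower, and with the scan as a random block 18850, 8930 and 17062 genes and 24 and 32 members. The replicate numbers did not pair the samples, with correlations of same-numbered mRNA arrays between -0.04 and 0.04. On the microRNA arrays these were -0.38 to 0.54. Each group there holds every replicate number, so a replicate block cannot change a fold change, and miR-28a-3p stayed at -0.23 by design. With MCT 330 replicate 1 as a separate sample, chosen after seeing the data, 13782, 1783 and 11297 genes were called, 16 and 29 members lower at MCT 270 and between the doses, and 28 and 3 genes of the lists. Without a filter on background 3758 genes were called at MCT 330 and 0 between the doses, with 0 members. With probes well above background on all arrays MCT 270 gave 410 genes and 11 members, and with normexp 522 genes, 12 members and 2 genes of the lists, and MCT 330 gave 18 genes of the lists with normexp. Leaving out a replicate gave 4991 to 8444 genes at MCT 330, 0 at MCT 270 and 0 to 7352 between the doses, with 0 to 21 members, and 2 to 10 genes of the lists at MCT 330; the lowest values are those without MCT 270 replicate 1.

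Single members kept their direction under every alternative in 35 of the 36 below 0 at MCT 330 (not Rora), 26 of 28 at MCT 270 (not Ptprd and Wwox) and 34 of 37 between the doses (not Bbs9, Fhit and Nfia). With a replicate left out the miR-28a-3p difference between the doses ran from -0.28 to 0.09, and the probe of miR-28a-5p and miR-28c from -0.25 to 0.21 at MCT 330, -0.44 to 0.20 at MCT 270 and -0.24 to 0.42 between the doses; without a replicate miR-28a-3p ran from -0.38 to -0.01 at MCT 330. The authors' normalized values gave miR-28a-3p -0.605 at MCT 330 and -0.572 at MCT 270, and the other probe -0.07 and -0.53. No alternative called either probe, with adjusted p from 0.28 to 0.98.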
